A study of Mus musculus with 9 samples.

Results

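The genes described here are 10 genes that carry out or control the removal of mitochondria by autophagy in maturing red cell precursors: Bnip3l, Bnip3, Fundc1, Ulk1, Atg7, Map1lc3b, Gabarapl2, Pink1, Optn and Foxo3. They were chosen by name from what is known of the pathway, but with earlier results of these data known. All 10 were found among the 20368 genes of the deposited table. Of the 10, 9 passed a filter of at least 1 FPKM (fragments per kilobase of transcript, scaled to library depth) in at least 3 libraries, Bnip3 being the exception, and 9543 genes passed in all.

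The values come from RNA sequencing of total RNA from spleen cells that carried CD71, the transferrin receptor, together with Ter119, an antigen of the erythroid lineage. Desert hedgehog (Dhh) is a secreted ligand of the Hedgehog family, and the series asks how it regulates red cell production in the spleen. There were 3 knockout libraries (Dhh-/-, written KO), 3 heterozygous libraries (Dhh+/-, HET) and 3 wildtype libraries (WT), all from C57BL/6 mice at 4 weeks of age. The labels name no Cre or transgene, and nothing in them says that Dhh was removed from the sorted cells alone. Whether each library stands for a separate mouse is not stated in the labels, and p-values therefore measure only the spread between these libraries, which may be technical.

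Red cell precursors rid themselves of mitochondria before they become erythrocytes, and they do so by mitophagy, in which an autophagosome encloses a mitochondrion and delivers it to the lysosome. Receptors on the outer mitochondrial membrane bind small ubiquitin-like proteins of the ATG8 family on the growing autophagosome. The ULK1 kinase starts the process and the E1-like enzyme ATG7 attaches ATG8 proteins to the membrane. In mice, loss of Bnip3l, which encodes the receptor NIX, leaves mitochondria behind in red cells.

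Erythroid genes were abundant in every library. Hbb-bs, an adult beta-globin gene, lay between 4022 and 8985 FPKM, Alas2, the erythroid enzyme that begins heme synthesis, between 2884 and 7458 FPKM, and Gata1, a master transcription factor of the lineage, between 171 and 254 FPKM. Dhh itself was listed at 0 in 8 libraries, all wildtype ones included, and at 0.0267 FPKM in HET replicate 1, which leaves the genotype labels unchecked. Reads recovered from the deposited values, with M for 1000000 reads, numbered 7.05 M to 14.23 M per library. KO replicate 2, HET replicate 2 and WT replicates 1 and 2 held 7.05 M to 9.66 M and are called the shallower libraries below, and the other 5 held 13.05 M to 14.23 M and are called the deeper ones. Adult globin genes made up 4.14% to 5.06% of all FPKM in the 4 shallower libraries, against 2.52% to 2.86% in the 5 deeper ones. Since 2 of the 4 shallower libraries are wildtype, depth and genotype are partly confounded, and KO minus WT within each depth set is given for each of the 9 tested genes. Marker genes of other spleen cells were present too, and their summed levels stand beside the results they move with.

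Promoter sequence is shown for 3 genes, Gabarapl2 and Map1lc3b because their levels moved together across the 9 libraries, and Pink1 because it differed between knockout and heterozygous libraries without overlap. RefSeq promoter entries on GRCm38.p6 matched 9 of the 10 genes by symbol. Bnip3l had no entry, so its promoter was not searched. The stretch before each RefSeq start was searched on both strands, over 250 bases, for the forkhead motif GTAAACA, for the E-box with the letters CACGTG and for the GATA motif, written either as AGATAA or as AGATAG or, with another first base, as TGATAA or as TGATAG. None of these motifs contains another. The Gabarapl2 stretch is chr8:111940453-111940702 on the plus strand, that of Map1lc3b is chr8:121590188-121590360 on the plus strand, and that of Pink1 is chr4:138326308-138326546 on the minus strand. The search covered all 250 bases, and the letters printed leave out bases next to the start that lie inside the annotated gene, 77 for Map1lc3b and 11 for Pink1, so that 250 bases are shown for Gabarapl2, 173 for Map1lc3b and 239 for Pink1. Capitals mark a motif match.
Gabarapl2: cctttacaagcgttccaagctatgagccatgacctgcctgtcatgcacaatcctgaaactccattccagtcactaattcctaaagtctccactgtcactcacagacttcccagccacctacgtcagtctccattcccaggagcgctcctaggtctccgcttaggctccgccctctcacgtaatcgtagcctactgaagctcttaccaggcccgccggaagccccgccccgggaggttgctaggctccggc
Map1lc3b: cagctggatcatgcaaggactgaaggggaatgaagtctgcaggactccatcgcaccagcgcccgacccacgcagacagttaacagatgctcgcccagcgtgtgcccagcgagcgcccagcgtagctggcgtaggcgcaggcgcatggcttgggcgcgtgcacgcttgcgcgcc
Pink1: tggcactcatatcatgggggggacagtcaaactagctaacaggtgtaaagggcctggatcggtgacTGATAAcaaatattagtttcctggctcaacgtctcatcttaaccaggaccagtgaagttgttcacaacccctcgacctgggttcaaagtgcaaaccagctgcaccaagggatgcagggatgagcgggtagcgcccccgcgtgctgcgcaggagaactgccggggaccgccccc
The 3 stretches held 1 match in all, a GATA motif (TGATAA) with 178 bases between it and the Pink1 start. GATA letters are common, being present in 26.5% of 32851 RefSeq promoter stretches of 250 bases, while the E-box stood in 6.02% and the forkhead motif in 3.17%. Among the other members the E-box was found in Bnip3, with 102 bases between it and the start, and in Atg7, with 126 bases between it and a RefSeq start that lies inside the annotated gene. No forkhead match was found in these windows, which says only that these letters are not there.

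The levels of the 10 genes ranged widely (the plot of levels by genotype). FPKM is scaled to gene length, so levels of different genes can be compared. Gabarapl2, Bnip3l and Map1lc3b stood highest, at 407 ± 159.6, 361 ± 125 and 276 ± 73.5 FPKM over the 9 libraries (mean ± SD, n = 9). A second tier held Optn at 132 ± 16.5, Ulk1 at 123 ± 24.4, Pink1 at 119.8 ± 29.6 and Foxo3 at 106 ± 13.1 FPKM. Atg7 at 5.25 ± 0.655, Fundc1 at 2.56 ± 0.482 and Bnip3 at 0.670 ± 0.358 FPKM were far lower. Within libraries, Gabarapl2 exceeded Bnip3l in 9 of 9, by 0.15 ± 0.11 on the log2 scale of the ratio, and Bnip3l exceeded Map1lc3b in 9 of 9, by 0.35 ± 0.16. Neighbours within the second tier did not differ beyond their spread: Optn was above Ulk1 in 7 of 9 libraries, Ulk1 above Pink1 in 5 of 9 and Pink1 above Foxo3 in 6 of 9. Foxo3 exceeded Atg7 in every one of the 9 libraries, by 4.33 ± 0.33 on the log2 scale.

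**Figure D1:**
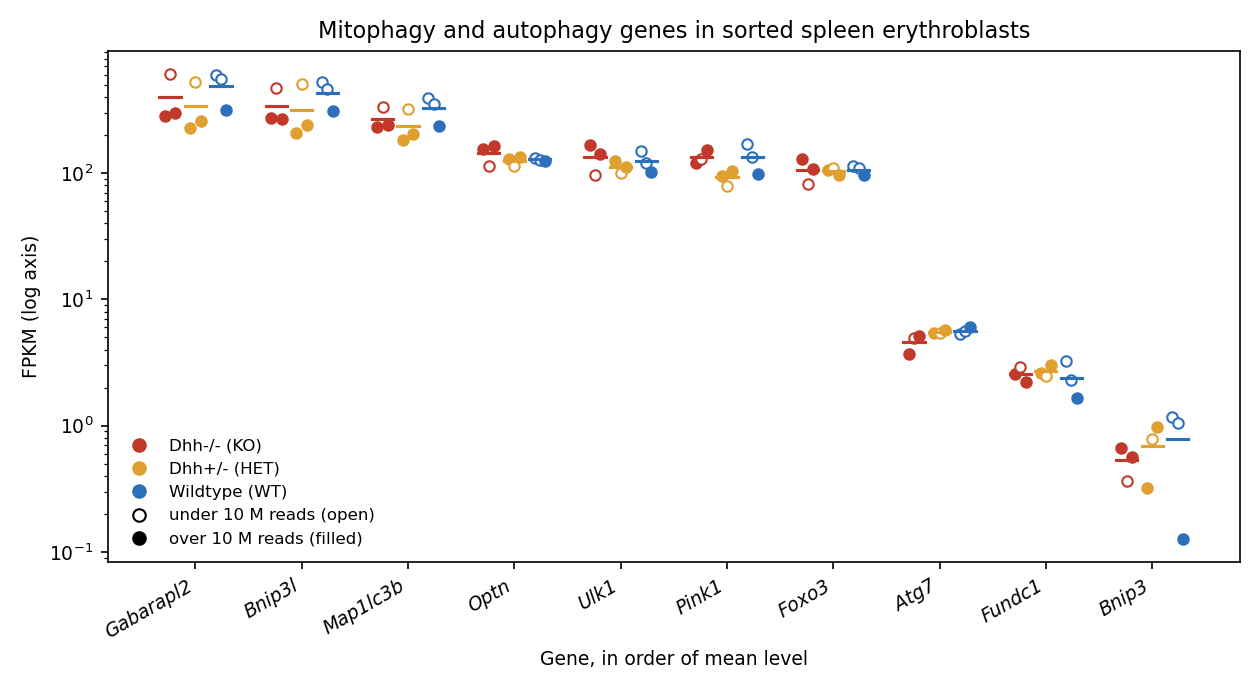
FPKM of each gene (log axis) in KO, HET and WT libraries, 3 points per genotype with the group mean as a bar. Open points are the shallower libraries, with under 10 M recovered reads. The 4 open points lie above every filled point for Gabarapl2, Bnip3l and Map1lc3b, and Atg7 is lower in the 3 KO libraries than in every other library.

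In the comparison of knockout with wildtype erythroblasts, none of the 9 tested genes passed limma's test at a Benjamini-Hochberg adjusted p below 0.05, and neither did any of the 9543 genes tested (0.0%). Without adjustment, 43 genes (0.451%) and none of the 9 had p below 0.05. These counts rested on single libraries, with 252 genes and 1 member, Optn, when KO replicate 2 was left out, 228 genes and no member without WT replicate 3, and 2097 genes and 4 members without both, of which again none passed after adjustment. Without both, the KO libraries left were all deeper and the WT libraries left all shallower. Genotype and depth therefore cannot be told apart in that fit. Voom on the recovered reads called 0 genes as well, with 38 at an unadjusted p below 0.05. Heterozygous and wildtype libraries gave the same counts of calls, 0 of 9 and 0.0% of all, with 113 genes (1.18%) at an unadjusted p below 0.05 in limma, Pink1 among them, and 91 in voom. Knockout and heterozygous libraries also gave 0 of 9 and 0.0%, with 56 genes (0.587%) at an unadjusted p below 0.05, again with Pink1 among them, and 53 in voom. All 3 comparisons use the same 9 libraries, so each pair of them shares 1 group, and their results are not independent. A missed threshold does not show that levels were alike, and the intervals below give the sizes these libraries allow.

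Among the receptors, Bnip3l (ENSMUSG00000022051, chromosome 14, 66985239 to 67008877, minus strand, mm10), the receptor NIX, had 272, 466 and 269 FPKM in KO replicates 1, 2 and 3, 205, 505 and 238 in HET replicates, and 520.4, 463 and 312 in WT replicates. Its highest 4 values, 463 to 520.4 FPKM, came from the 4 shallower libraries of all genotypes, and the genotypes overlapped. Group means were 336 ± 113 FPKM in KO, 316 ± 164 in HET and 432 ± 108 in WT (SD, n = 3 each). The log2 difference in log2(FPKM + 1) was -0.38 for KO against WT (95% interval -1.20 to 0.44), which on the fold scale runs from 0.436 to 1.36. It was -0.53 for HET against WT (-1.35 to 0.29) and 0.15 for KO against HET (-0.66 to 0.97), and none passed the test (limma adjusted p = 0.9997, 0.9999 and 0.9996, the values shared by the other members below). Within the shallower libraries the KO minus WT difference was -0.074 (1 library against 2) and within the deeper ones -0.20 (2 against 1), while HET minus WT was 0.041 and -0.49 in the same sets. Leaving out single libraries moved HET minus WT between -0.93 (without HET replicate 2, limma unadjusted p = 0.0138, adjusted p = 1) and -0.28 (without HET replicate 1). It moved KO minus WT between -0.64 (without KO replicate 2) and -0.23 (without WT replicate 1). Less Bnip3l RNA per cell and fewer cells that express it cannot be told apart in such bulk samples, for this gene or any other here.

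Bnip3 (ENSMUSG00000078566, chromosome 7, 138890836 to 138909519, minus strand) encodes a hypoxia-induced receptor related to NIX. It had 0.671, 0.361 and 0.569 FPKM in KO libraries, 0.324, 0.781 and 0.97 in HET libraries and 1.18, 1.05 and 0.128 in WT libraries. These values rest on 3 to 26 reads per library, with both the highest and the lowest level in wildtype. Bnip3l exceeded it 245- to 2440-fold in FPKM, a range set mainly by the few Bnip3 reads. With no filter on low values, the log2 difference of Bnip3 was -0.17 for KO against WT (95% interval -0.76 to 0.43), and it was -0.039 for HET against WT and -0.13 for KO against HET. None of the 3 passed (limma adjusted p = 1).

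Fundc1 (ENSMUSG00000025040, chromosome X, 17556564 to 17572325, minus strand) encodes another hypoxia-responsive receptor of the outer membrane. Its levels were 2.57, 2.93 and 2.21 FPKM in KO libraries, 2.63, 2.46 and 3.02 in HET libraries and 3.25, 2.30 and 1.65 in WT libraries. Wildtype spanned the widest range and contained both other groups. The log2 differences were 0.091 for KO against WT (95% interval -0.35 to 0.53), 0.15 for HET against WT (-0.29 to 0.59) and -0.056 for KO against HET (-0.50 to 0.39). KO minus WT was 0.069 within the shallower libraries and 0.35 within the deeper ones, and HET minus WT was -0.11 and 0.53. The 3 receptor genes thus differed by orders of magnitude in level, while no genotype difference passed the test for any of them.

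Pink1 and Optn belong to the ubiquitin-dependent route. Pink1 (ENSMUSG00000028756, chromosome 4, 138313409 to 138326307, minus strand), a kinase that accumulates on damaged mitochondria and marks them with phospho-ubiquitin, had 119.7, 128 and 152 FPKM in KO libraries, 94.9, 78.1 and 103 in HET libraries and 171, 133 and 97.7 in WT libraries. All 3 KO values lay above all 3 HET values, whereas WT spanned both groups. KO exceeded HET by 0.53 in log2 (95% interval 0.067 to 1.00, limma unadjusted p = 0.0293, adjusted p = 0.9996), and the exact 2-sided permutation test gave p = 0.1, the smallest that 3 against 3 libraries allow. Without overlap in this direction were 249 of all tested genes (2.61%) and 1 of the 9 members. The difference had the same sign within both depth sets, at 0.70 in the shallower libraries (1 against 1) and 0.45 in the deeper ones (2 against 2). Leaving out single libraries moved it between 0.42 (without HET replicate 2) and 0.62 (without HET replicate 3). Its limma unadjusted p was not below 0.05 without KO replicate 3, HET replicate 1 or HET replicate 2. The same held with libraries scaled to the same sum or quantile normalized. HET minus WT was -0.51 (95% interval -0.97 to -0.045, unadjusted p = 0.0350, limma adjusted p = 0.9999), but the 2 groups overlapped, and the difference was -0.94 in the shallower libraries (1 against 2) and 0.018 in the deeper ones (2 against 1). Without WT replicate 1 it was -0.32 and without WT replicate 3 it was -0.72. The KO minus WT difference was 0.022, with an interval of -0.44 to 0.49, and it was -0.24 in the shallower libraries and 0.46 in the deeper ones.

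Optn (ENSMUSG00000026672, chromosome 2, 5020642 to 5064051, minus strand), an autophagy adaptor that links ubiquitin on the cargo to ATG8 proteins, had 154, 113 and 163 FPKM in KO libraries, 128, 114 and 133 in HET libraries and 131, 127 and 125 in WT libraries. KO held both the 2 highest values and the lowest, and the wildtype libraries lay within a few FPKM of each other, at 128 ± 3.08 (SD, n = 3). The log2 difference was 0.15 for KO against WT (95% interval -0.19 to 0.48), -0.034 for HET against WT (-0.37 to 0.30) and 0.18 for KO against HET (-0.15 to 0.51). KO minus WT was -0.19 within the shallower libraries and 0.34 within the deeper ones. Without KO replicate 2 it was 0.31 (limma unadjusted p = 0.0187, adjusted p = 1).

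Ulk1 and Atg7 stand for the core machinery. Ulk1 (ENSMUSG00000029512, chromosome 5, 110784488 to 110810097, minus strand), the kinase that starts autophagy and is needed in mice for timely clearance of mitochondria from reticulocytes, had 166, 95.95 and 141 FPKM in KO libraries, 124, 100.1 and 111 in HET libraries and 149.9, 120.4 and 102 in WT libraries. Both the highest and the lowest value were in KO. Its log2 difference was 0.095 for KO against WT (95% interval -0.39 to 0.58), -0.14 for HET against WT (-0.63 to 0.35) and 0.23 for KO against HET (-0.25 to 0.72). Its KO minus WT difference had opposite signs in the depth sets, at -0.48 in the shallower and 0.58 in the deeper one, and HET minus WT was -0.42 and 0.20.

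Atg7 (ENSMUSG00000030314, chromosome 6, 114643097 to 114860614, plus strand) had 3.70, 4.99 and 5.09 FPKM in KO libraries, 5.44, 5.41 and 5.69 in HET libraries and 5.34, 5.59 and 6.01 in WT libraries. Every KO library was below every HET and every WT library, and HET and WT overlapped. The means were 4.59 ± 0.771 FPKM in KO, 5.51 ± 0.153 in HET and 5.65 ± 0.336 in WT (SD, n = 3 each), and the counts behind them were 159 to 350 reads per library. In log2(FPKM + 1), which understates changes of low genes, KO minus WT was -0.26 (95% interval -0.58 to 0.066, limma unadjusted p = 0.105) and KO minus HET was -0.23 (95% interval -0.55 to 0.095). The exact 2-sided permutation test gave p = 0.1 in both, the smallest possible. KO lay below WT without overlap for 134 tested genes (1.4%) and for Atg7 alone of the 9 members, and KO lay below HET without overlap for 179 genes (1.88%), again with Atg7 as the 1 member. Only 24 of all tested genes (0.251%) were lower in the 3 KO libraries than in all 6 others. KO replicate 1 was the lowest, and the 2 other KO libraries, at 4.99 and 5.09 FPKM, stood nearer to the lowest WT library at 5.34. Leaving KO replicate 1 out moved the KO minus WT difference to -0.14 and the KO minus HET difference to -0.11. Within depth sets, KO minus WT was -0.11 in the shallower libraries and -0.39 in the deeper ones, and KO minus HET was -0.098 and -0.29.

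Both ATG8 genes among the members varied widely between libraries. Map1lc3b (ENSMUSG00000031812, chromosome 8, 121590361 to 121598760, plus strand) encodes LC3B, the ATG8 protein most used as an autophagosome marker. Its levels were 229, 331 and 241 FPKM in KO libraries, 182, 321 and 203 in HET libraries and 389, 354 and 234 in WT libraries. The 4 shallower libraries were again the 4 highest, and the genotypes overlapped. KO minus WT was -0.27 (95% interval -0.87 to 0.33), HET minus WT -0.48 (-1.07 to 0.12) and KO minus HET 0.21 (-0.39 to 0.80) in log2. Within the deeper libraries, KO minus WT was 0.0065 (2 against 1), and within the shallower ones -0.16 (1 against 2). Omission of single libraries moved KO minus WT between -0.49 (without WT replicate 3) and -0.13 (without WT replicate 1), and HET minus WT between -0.72 (without HET replicate 2) and -0.32 (without HET replicate 1).

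Gabarapl2 (ENSMUSG00000031950, chromosome 8, 111940703 to 111953612, plus strand), the ATG8 protein also called GATE-16, had 284, 607 and 296 FPKM in KO libraries, 226, 528 and 257 in HET libraries and 595, 557 and 315 in WT libraries. Its 4 highest values were in the shallower libraries, with no overlap with the deeper ones, and the genotypes overlapped. KO minus WT was -0.34 (95% interval -1.26 to 0.57), HET minus WT -0.59 (-1.51 to 0.33) and KO minus HET 0.24 (-0.68 to 1.16) in log2. The KO minus WT difference was 0.076 within the shallower libraries and -0.12 within the deeper ones, and HET minus WT was -0.12 and -0.38. With single libraries left out, KO minus WT lay between -0.70 (without KO replicate 2) and -0.15 (without KO replicate 1), and HET minus WT between -0.96 (without HET replicate 2) and -0.35 (without HET replicate 1).

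Foxo3 (ENSMUSG00000048756, chromosome 10, 42181841 to 42276755, minus strand) encodes a transcription factor that in mouse erythroblasts is needed for late maturation and activates autophagy genes. Its levels were 129, 82.15 and 107 FPKM in KO libraries, 106, 109.8 and 96.9 in HET libraries and 114, 109 and 95.95 in WT libraries. KO held the highest and the lowest value around a mean of 106 ± 23.5 FPKM, beside 104 ± 6.59 in HET and 106 ± 9.51 in WT (SD, n = 3 each). The log2 differences were -0.024 for KO against WT (95% interval -0.40 to 0.35), -0.030 for HET against WT and 0.0059 for KO against HET. KO minus WT was -0.44 within the shallower libraries and 0.29 within the deeper ones.

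**Figure D2:**
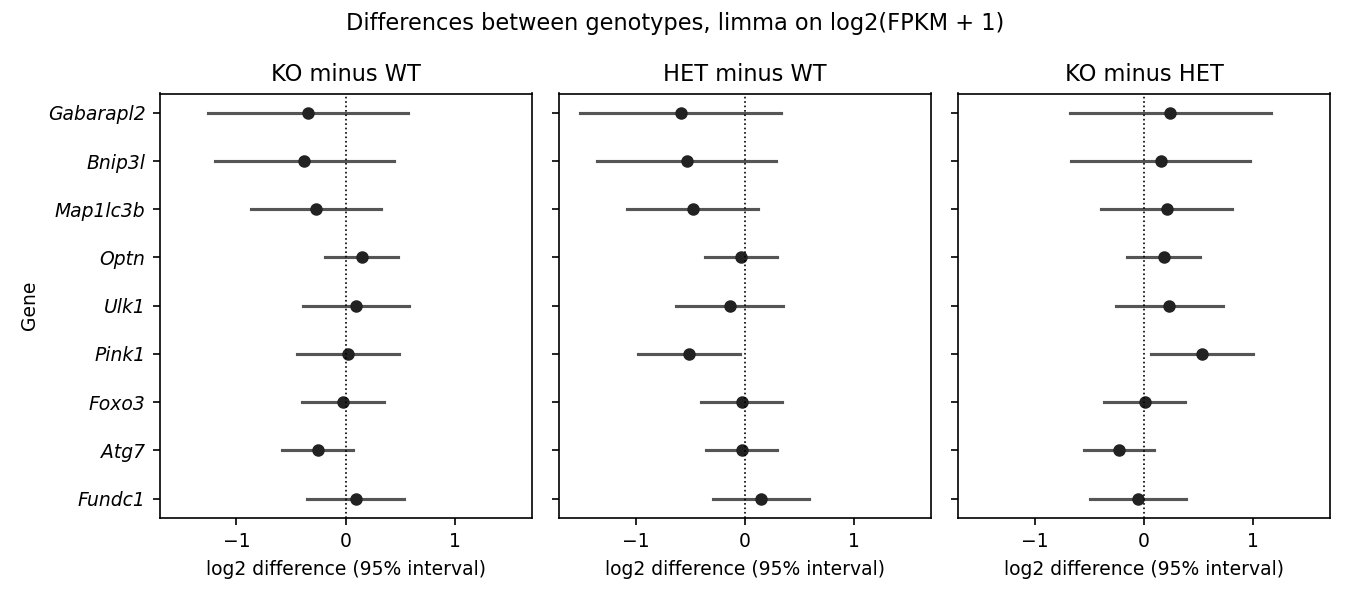
Log2 difference in log2(FPKM + 1) for the 9 tested genes in KO minus WT, HET minus WT and KO minus HET, with 95% intervals from limma as bars. The intervals of Gabarapl2 and Bnip3l are the widest, and 2 intervals do not include 0, those of Pink1 in HET minus WT (-0.97 to -0.045) and in KO minus HET (0.067 to 1.00). With libraries scaled to the same sum or quantile normalized, no member had a limma unadjusted p below 0.05.

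As a group, the 9 tested genes had a median log2 difference of -0.024 for KO against WT, with 4 above 0 and 5 below, beside 0.0088 over all tested genes, of which 47.3% were below 0. For HET against WT the median was -0.14, with 1 gene above 0 and 8 below, beside -0.0020 over all tested genes, of which 50.6% were below 0. For KO against HET it was 0.18, with 7 above 0 and 2 below, beside 0.0037 over all genes, of which 48.9% were below 0. The split for HET against WT depends on scaling. With all libraries scaled to the same sum, the median of all tested genes moved to 0.074 for KO against WT, 0.14 for HET against WT and -0.072 for KO against HET, and the members' medians to 0.040, 0.0043 and 0.10, with 5 of the 9 above 0 for HET against WT. Quantile normalization left 3 above and 6 below in that comparison, at a median of -0.066. Relative to the median of all genes, the members' median for HET against WT was lower under each of these 3 scalings. Marker lists moved with the same comparison, and their part in it was not tested. The late maturation markers were below 0 for HET against WT in 14 of 14 genes (median -0.17) and above 0 for KO against HET in 14 of 14 (median 0.12). Under library-sum scaling 8 of the 14 were below 0 for HET against WT, at a median of -0.032 beside 0.14 over all tested genes. Under quantile normalization 7 were below 0, at a median of 0.027 beside -0.0017 over all tested genes. For KO against HET, 11 and 8 of them were above 0 under these scalings. For HET against WT the B cell markers were above 0 in 9 of 9 (median 0.68) and the macrophage and monocyte markers in 11 of 11 (median 0.62), and these counts were the same under both other scalings. WT replicate 3 was the lowest library for both lists, at mean log2 levels of 1.788 and 3.625. WT replicate 1, at 5.304 and 6.918, lay above every HET library, so WT spanned HET in both. T and NK cell markers were above 0 in 7 of 8 (median 0.25), but neutrophil markers were below 0 in 7 of 8 (median -0.56). The T and NK cell count depended on scaling, with 8 of 8 above 0 under library-sum scaling (median 0.55). Under quantile normalization 4 were above 0 and 4 below (median 0.056). Neutrophil markers were below 0 in 7 and 8 of 8 under these scalings.

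Variation between libraries was shared among Gabarapl2, Bnip3l and Map1lc3b. Their spread over the 9 libraries, as the SD of log2(FPKM + 1), stood at percentiles 90.4, 88.4 and 82.1 of all tested genes, while Atg7 stood at percentile 25.8, Optn at 29.7 and Foxo3 at 33.6. Gabarapl2 had 528 to 607 FPKM in shallower libraries, against 226 to 315 in the deeper ones, a 2.08-fold ratio of means. Bnip3l had 463 to 520.4 FPKM in shallower libraries, against 205 to 312 in deeper ones, a 1.89-fold ratio. For Map1lc3b the levels were 321 to 389 FPKM in shallower libraries, against 182 to 241 in deeper ones, a 1.60-fold ratio. These 3 were the members whose depth sets did not overlap, and over all genes 5.66% were higher in the shallower libraries without overlap and 6.86% lower. The other tested members overlapped, with ratios of 1.13 for Fundc1, 1.12 for Pink1, 1.03 for Atg7, 0.971 for Foxo3, 0.905 for Ulk1 and 0.864 for Optn. Before scaling, the reads of these genes varied less between libraries than those of Optn and Foxo3. Bnip3l had 10517 to 14682 reads in every library, Gabarapl2 3502 to 5621 and Map1lc3b 4004 to 5941, while Optn had 2014 to 5110 and Foxo3 2243 to 5069. A fit with the log2 of the reads as a covariate narrowed the errors of these 3 genes. HET minus WT was then -0.40 ± 0.084 in log2 for Bnip3l, -0.38 ± 0.099 for Map1lc3b and -0.44 ± 0.12 for Gabarapl2 (SE). The limma unadjusted p was 0.00137, 0.00448 and 0.00543 in that order, and the adjusted p was 0.999 for each. In that fit 4 members and 248 of 9543 tested genes had an unadjusted p below 0.05 for HET against WT. For KO against HET it was 4 members and 106 genes, and for KO against WT 1 member and 77 genes. With the depth set as a term, a fit chosen after seeing the data, HET minus WT of these 3 genes was -0.24, -0.27 and -0.25, at a limma adjusted p of 0.642 for each, the lowest over their alternatives.

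**Figure D3:**
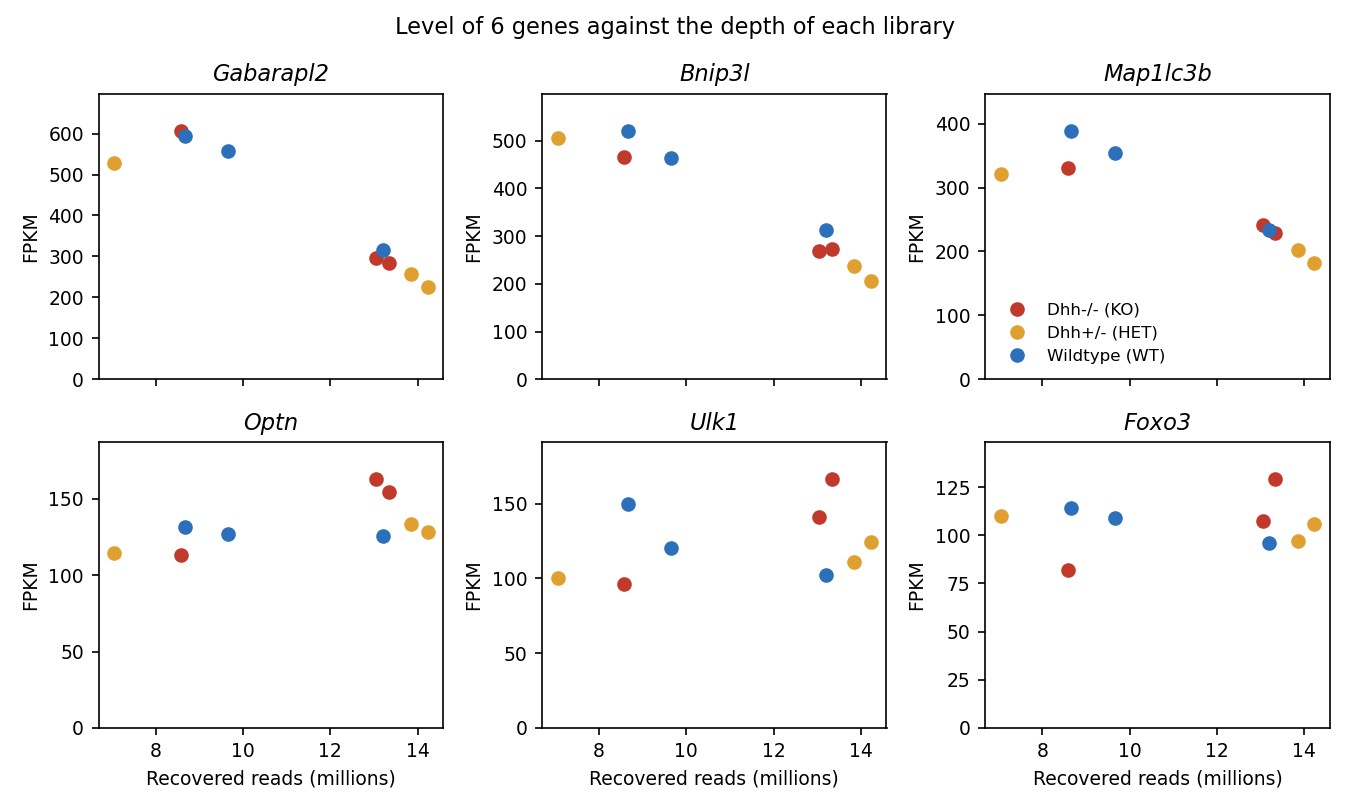
FPKM of 6 genes against the recovered reads of each library in M, 1 point per library, coloured by genotype. Gabarapl2, Bnip3l and Map1lc3b fall into a high group of 4 libraries at 7.05 M to 9.66 M reads and a low group of 5 at 13.05 M to 14.23 M, while Optn, Ulk1 and Foxo3 do not separate this way.

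Other measures moved with the same division of the libraries, and their part in it was not tested. Markers of late red cell maturation summed to 8662 to 10220 FPKM in shallower libraries, against 6135 to 7743 in the deeper ones, with 3 of the 14 genes higher without overlap. Those 3, Ube2l6, Bpgm and Ube2o, had mean levels in the shallower libraries 1.71 to 2.71 times those in the deeper ones. For the rest of that list the ratios were 0.892 to 1.065, with overlap. The list's mean log2 level overlapped as well, at 8.623 to 8.936 in shallower and 8.435 to 8.751 in deeper libraries. For the erythroid identity markers the sums were 23620 to 26550 FPKM in shallower libraries, against 14080 to 17880 in deeper ones, with 3 of 10 genes higher without overlap. Those 3, Hbb-bs, Alas2 and Hba-a1, carry most of the sums. Gata1, Klf1, Tal1, Epor and Tfrc had mean levels in the shallower libraries 0.828 to 0.926 times those in the deeper ones, with overlap, and the list's mean log2 level overlapped too, at 9.85 to 10.06 in shallower and 9.62 to 9.92 in deeper libraries. T and NK cell markers were low but separated as clearly, at 63.7 to 70.4 FPKM summed over 8 genes in shallower libraries, against 1.08 to 31.7 in the deeper ones, with 7 of the 8 higher without overlap and none listed at 0 in every library. By genotype that list summed to 30.6 to 66.5 FPKM in KO, 30.03 to 63.7 in HET and 1.08 to 70.4 in WT. B cell markers, 9 of 9 tested, summed to 324 to 824 FPKM in KO, 592 to 779 in HET and 82.9 to 1314 in WT, and overlapped between the depth sets. Macrophage and monocyte markers, 11 of 11 tested, summed to 489 to 1723 FPKM in KO, 820.3 to 1055 in HET and 159.8 to 1603 in WT, and neutrophil markers, 8 of 8, to 380.5 to 1370.0, 238 to 699 and 298 to 1476 FPKM. WT replicate 3 was the lowest library for the B cell, macrophage and T and NK cell sums, at 82.9, 159.8 and 1.08 FPKM. Early erythroid markers, 7 of 8 tested, summed to 378 to 416 FPKM in KO, 349.9 to 442 in HET and 356.5 to 613 in WT, and the 5 platelet markers found, 2 of them tested, to 33.4 to 54.5, 37.2 to 39.4 and 35.9 to 40.2 FPKM. The single most abundant marker of each list was Hbb-bs (erythroid identity), Ube2l6 (late maturation), Car1 (early erythroid), Cd74 (B cells), Lyz2 (macrophages), Nkg7 (T and NK cells), S100a9 (neutrophils) and Gp9 (platelets), with means of 6324, 1458, 249.5, 369.8, 197, 14.4, 304 and 26.8 FPKM.

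The genes most like Bnip3l in pattern were found by the root mean square difference of log2(FPKM + 1), centred on each gene's mean over the 9 libraries. The nearest were Isg20 (0.0531), Hbb-bt (0.0648), Ccndbp1 (0.0659), Ube2l6 (0.0688) and Hbb-bs (0.0755), against a median of 0.55 over all tested genes. Of these, Hbb-bt and Hbb-bs are adult beta-globin genes and Ube2l6 is on the late maturation list. Gabarapl2 ranked 14th at 0.107 and Map1lc3b ranked 26th at 0.155. The other tested members ranked between 2514th, for Fundc1, and 6963rd, for Ulk1. This likeness is a description over 9 libraries that differ in depth and, along with it, in globin share, and no test was made of it. Per length, Bnip3l stood at 0.0677 to 0.0829 of the Alas2 level, a narrow range beside its own 2.53-fold range over the libraries.

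**Figure D4:**
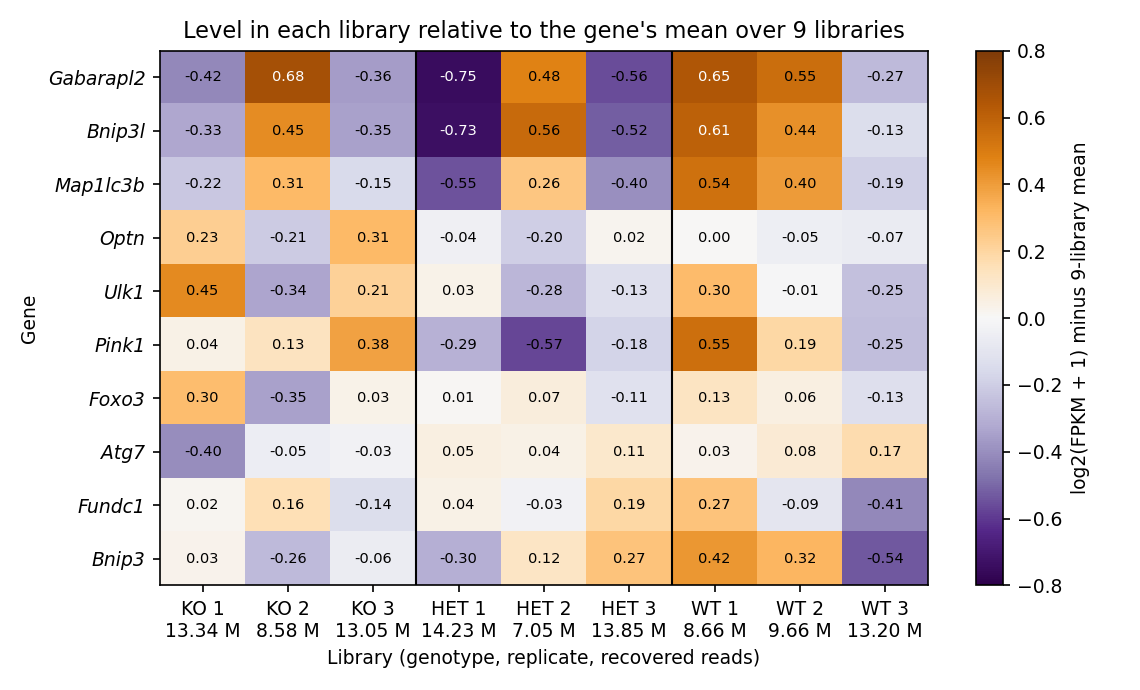
Level of each gene in each library relative to its own 9-library mean, in log2(FPKM + 1), with the recovered reads of each library in M below its name. Gabarapl2, Bnip3l and Map1lc3b share their colours across KO 2, HET 2, WT 1 and WT 2, while Atg7 is at its lowest, -0.40, in KO 1 and Pink1 is below 0 in all 3 HET libraries.

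Around these 10 genes, 7 lists of autophagy and mitochondrial genes were examined, and limma called 0 genes in every list and comparison. Of the other mitophagy receptors, adaptors and regulators, 13 of 13 were tested, with median log2 differences of -0.029 for KO against WT, -0.15 for HET against WT and 0.13 for KO against HET. Ncoa4, the receptor for autophagy of ferritin, was the most abundant at 315 ± 10.8 FPKM in KO, 292 ± 51.7 in HET and 329.7 ± 75.5 in WT (SD, n = 3 each). Sqstm1, the ubiquitin-binding adaptor p62, was at 182 ± 9.05 FPKM in KO, 158 ± 14.9 in HET and 195 ± 29.7 in WT, and KO and HET did not overlap. Tomm7, a subunit of the outer membrane translocase that stabilises PINK1, also lay higher in KO than in HET without overlap, at 31.0 ± 0.827 and 23.9 ± 4.63 FPKM. With 2 of 13 genes of this list without overlap in that direction, the background of all genes was 2.61%.

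Of the initiation complexes, 19 of 19 genes were tested, with medians of 0.035 for KO against WT, -0.070 for HET against WT and 0.011 for KO against HET. Becn1, a subunit of the lipid kinase complex that acts after ULK1, was at 213 ± 29.0 FPKM in KO, 204 ± 65.7 in HET and 236 ± 39.6 in WT (SD, n = 3 each). Atg9a, a membrane protein that supplies lipid to the autophagosome, was at 95.5 ± 21.3 FPKM in KO, 82.6 ± 9.62 in HET and 86.5 ± 3.82 in WT. In neither gene did the genotypes separate, but Becn1 was higher in the shallower libraries than in the deeper ones without overlap.

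Among the ATG8 family and conjugation genes, 10 of 12 were tested, with medians of 0.0088, -0.046 and 0.078 in the same 3 comparisons. Gabarap, a further ATG8 protein, was at 221 ± 25.1 FPKM in KO, 212 ± 33.1 in HET and 253 ± 6.71 in WT, and its KO libraries, 193 to 242 FPKM, all lay below its WT libraries, 245 to 256.5 FPKM. KO minus WT was -0.20 ± 0.14 in log2 (SE, limma adjusted p = 0.9997). Gabarapl2 stood 1.19- to 2.51-fold above Gabarap, and Map1lc3b 30.5- to 119-fold above its paralog Map1lc3a. Atg4d, a protease that processes ATG8 proteins, was at 126 ± 22.2 FPKM in KO, 113 ± 7.01 in HET and 118 ± 5.54 in WT. Atg12, the ubiquitin-like partner of ATG5, was the 1 gene of the list whose HET libraries all lay below WT, at 20.5 ± 0.699 against 26.5 ± 2.18 FPKM (3.07% of all tested genes did so), and it was chosen here after its values were seen.

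The fusion and lysosome list had 17 of 17 genes tested and medians of -0.014, -0.052 and 0.075. Vamp8, a SNARE protein of autophagosome fusion, was at 147 ± 34.8 FPKM in KO, 136 ± 25.8 in HET and 154 ± 29.6 in WT, and Lamp1, a lysosomal membrane protein, at 101 ± 13.0, 101 ± 10.5 and 109.3 ± 8.82 FPKM in the same groups. The list of FOXO factors and energy-sensing kinases had 15 of 16 genes tested and medians of -0.043, -0.064 and 0.048, with Prkaa2, a catalytic subunit of AMP-activated kinase, listed at 0 in every library. Stk11, the kinase LKB1 that activates AMP-activated kinase, was at 347 ± 47.9 FPKM in KO, 322 ± 20.5 in HET and 314 ± 15.5 in WT, and Prkab1, a regulatory subunit of that kinase, at 129 ± 27.5, 123 ± 10.9 and 133 ± 30.6 FPKM.

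On the mitochondrial side, 10 of 11 fission and fusion genes were tested, with medians of -0.0034, -0.049 and 0.044. Fis1, an outer membrane fission protein, was at 232 ± 60.9 FPKM in KO, 201 ± 56.8 in HET and 272 ± 36.0 in WT. It was higher in the shallower libraries than in the deeper ones without overlap, as was Mff, another fission factor, whereas Dnm1l, the fission GTPase, and the fusion GTPases Mfn1 and Opa1 were lower without overlap. These 5 of the 10 genes stand beside 5.66% of all tested genes higher and 6.86% lower. Depth sets also separated for 1 initiation gene higher (Becn1) and 1 lower, and for 3 genes of the FOXO list higher and 1 lower (Prkab1). In the ATG8 list 1 gene was lower and in the fusion and lysosome list 2 were. In the receptor list and the outer membrane, import and biogenesis list 0 genes separated. March5, a ubiquitin ligase of the outer membrane, was at 120.2 ± 12.7 FPKM in KO, 107 ± 10.4 in HET and 119.4 ± 8.39 in WT. Of the outer membrane, import and biogenesis genes, 13 of 15 were tested, with medians of -0.026, -0.0056 and -0.017. Cox4i1, a subunit of cytochrome c oxidase, was at 377 ± 42.2 FPKM in KO, 345 ± 22.6 in HET and 361 ± 81.2 in WT, and Cs, citrate synthase of the mitochondrial matrix, at 68.6 ± 4.62, 71.4 ± 1.42 and 73.8 ± 22.5 FPKM. Under scaling to library sums the median for HET against WT was above 0 in 6 of the 7 lists, the receptor list being the exception at -0.0042. The median of all tested genes moved to 0.136 under that scaling. Beside it the outer membrane, import and biogenesis list was close, at 0.138, and the other lists lay lower, at -0.0042 to 0.097. These list medians were not tested, and no direction is read from them.

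**Figure D5:**
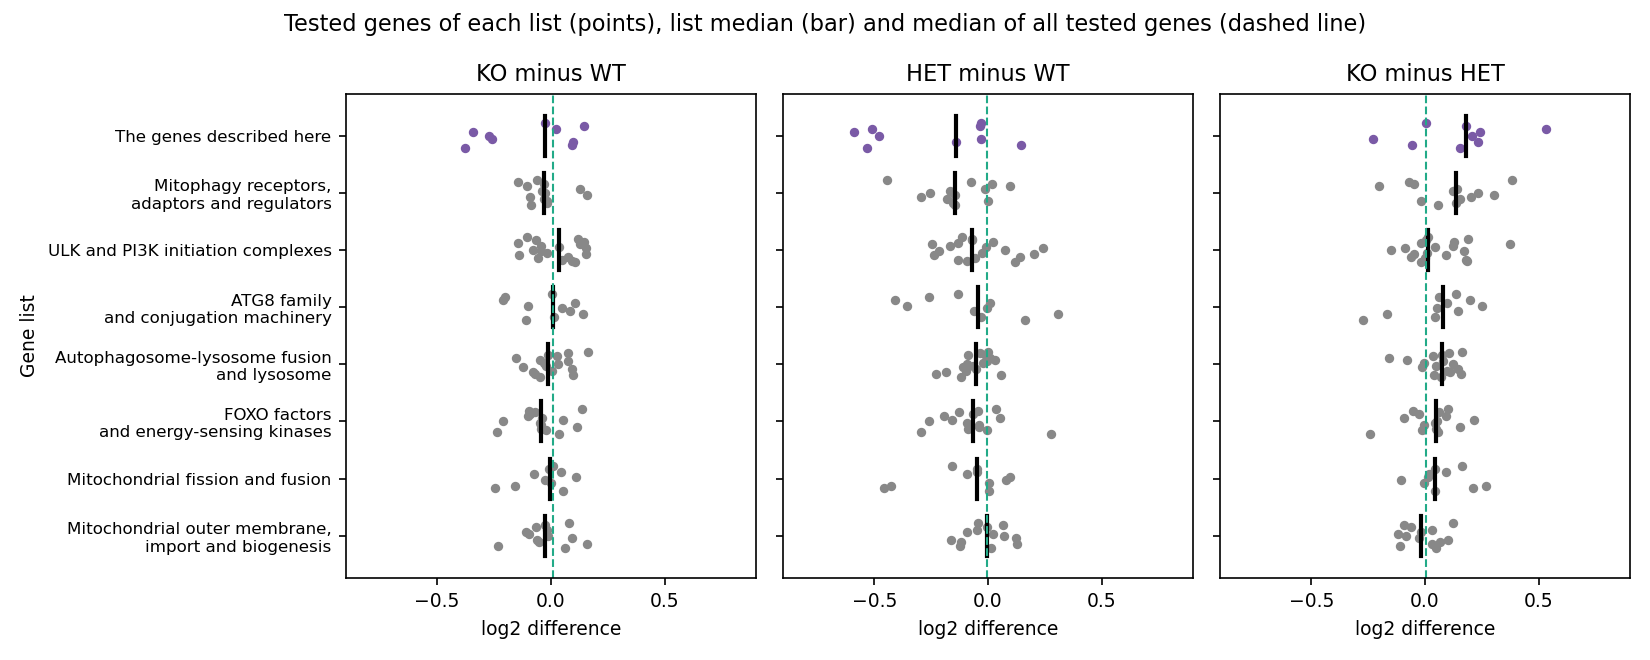
Log2 differences in KO minus WT, HET minus WT and KO minus HET for the 9 tested members (top) and the tested genes of 7 lists, 1 point per gene, with the list median as a bar and the median of all tested genes as a dashed line. No gene shown passed the test, and list medians lie between -0.15 and 0.18.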

How the data were processed

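RNA sequencing was done on 9 libraries of sorted spleen erythroblasts, 3 for each Dhh genotype. The authors deposited 1 table of FPKM values for 20368 genes. TopHat, Picard, DESeq2 and the build mm10 are named without versions or roles, per the submitters' processing notes. Not given in the sources used here were annotation, strandedness and read pairing, so that the values may equally be RPKM, and overlapping or antisense genes can share reads. All 14147 genes above 0 in 2 or more libraries gave whole reads within 0.05 of a read, with library factors equal to median-of-ratios factors over 11276 genes. The deposited FPKM are therefore scaled with size factors in place of library totals, and a shift in composition can move them. Of the identifiers, 20028 (98.3%) matched GENCODE names on mm10, which gave positions, and 26 symbols turned into dates were restored. Recovered reads were 7.05 M to 14.23 M per library (M, 1000000 reads). Counting intervals cover counting error only.

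Values were tested as log2(FPKM + 1) for the 9543 genes at or above 1 FPKM in 3 or more libraries, and the fold scale runs on that scale too. The fit, limma 3.58.1 under R 4.3.3, had 1 mean for each genotype, and all 9 libraries share one estimate of the spread, with a trend. Benjamini-Hochberg adjusted p below 0.05, 2-sided, was the threshold in each of 3 contrasts. The fit was also run on simulated reads, in which genes did not move with the depth sets. That run therefore does not measure the power of the fit in these libraries. The rest used matplotlib 3.10.9, pandas 2.3.3 and numpy 2.4.6 in Python 3.11.15. Replicate numbers are those of the labels, where no pairing is stated. Deviations of same-numbered libraries (1, 2 and 3) correlated at 0.20, 0.18 and 0.41 between KO and HET, each over 0.1, at -0.57, 0.51 and 0.33 between KO and WT, and at 0.13, 0.18 and 0 between HET and WT. The rule that every pair exceed 0.1 is met by KO with HET only. Same-numbered KO and HET libraries also fall in the same depth set, so pairing cannot be told apart from depth there. The results given are from the fit and permutation tests without pairing, and the replicate block is an alternative. The members and lists were chosen with earlier results of these data known. Text names the 10 members, the 2 most abundant genes of each pathway list, the 5 genes most like Bnip3l and the most abundant marker of each cell type list. Tomm7, Mff, Dnm1l, Mfn1, Opa1, Atg12, Alas2, Hba-a1, Gata1, Klf1, Tal1, Epor, Tfrc, Bpgm, Ube2o, Map1lc3a, Prkaa2 and Dhh were named outside that rule, after values were seen. Atg4a, Trac and Gp1bb matched no symbol and were not used here, and 1 further listed gene is not reported here. Alternatives were other pseudocounts, filters, scalings and variance models, a replicate block, depth terms, voom on recovered reads and omission of libraries.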

Additional observations from a re-analysis of the deposited data

How the results depend on the processing

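Counts of calls were 0 in all 3 comparisons, for the 9 members and for all tested genes, under all 21 alternatives, with 2097 genes at an unadjusted p below 0.05 at most, in KO versus WT without WT replicate 3 and KO replicate 2. That omission leaves only deeper KO libraries and only shallower WT libraries. The fit with the replicate block changed no call, and under it KO minus HET of Pink1 had a limma adjusted p of 1. Of 321 member differences under 12 alternatives, 304 kept their sign and 17 did not, none of them called, and the cause was not tested. Scaling to library sums turned KO minus WT of Foxo3 to 0.040, HET minus WT of Ulk1, Atg7, Optn and Foxo3 to 0.0043, 0.10, 0.11 and 0.11, and KO minus HET of Foxo3 to -0.073. Quantile normalization turned HET minus WT of Optn and Foxo3 to 0.090 and 0.070, and KO minus HET of Fundc1 and Foxo3 to 0.011 and -0.074. Leaving out WT replicate 3 and KO replicate 2 together turned KO minus WT of Fundc1, Pink1 and Foxo3 to -0.15, -0.16 and 0.075, HET minus WT of Fundc1 and Atg7 to -0.019 and 0.0095, and KO minus HET of Bnip3l and Gabarapl2 to -0.11 and -0.11. The same omission took KO minus WT of Gabarapl2 to -0.99 (limma unadjusted p = 0.0196, adjusted p = 0.17, the lowest over its alternatives, which reached 1). Genotype cannot be told apart from depth in that value.

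Leaving out 1 library at a time turned 21 of 243 member differences. KO minus WT ran from -0.075 to 0.27 for Fundc1, -0.076 to 0.32 for Ulk1, -0.19 to 0.21 for Pink1 and -0.18 to 0.15 for Foxo3. HET minus WT ran from -0.019 to 0.32 for Fundc1, -0.27 to 0.0052 for Ulk1, -0.062 to 0.0095 for Atg7, -0.081 to 0.029 for Optn and -0.10 to 0.023 for Foxo3. KO minus HET ran from -0.11 to 0.55 for Bnip3l, -0.13 to 0.018 for Fundc1, -0.11 to 0.62 for Gabarapl2 and -0.15 to 0.18 for Foxo3. With the depth set as a term, an alternative chosen after seeing the data, KO minus WT of Gabarapl2 was -0.0039 and HET minus WT -0.25. At at least 5 FPKM Fundc1 could not be tested, and Bnip3 was tested with no filter only. With 3 libraries per genotype and depth partly tied to genotype, the 95% intervals of Gabarapl2 and Bnip3l allow changes of more than 2-fold. The interval of Map1lc3b does so as well for HET against WT, with a lower end of 0.475 on the fold scale.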
